A study of Macaca fascicularis with 23 samples.

Results

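The messages of 39 genes for protein chaperones and the endoplasmic reticulum (ER) stress response were followed across the livers of cynomolgus monkeys (Macaca fascicularis) given ciprofibrate or vehicle. The genes came from a list chosen with earlier results of these data known. Every probe set whose array annotation named a listed gene was counted as a member. Of the 12625 probe sets on the array, 57 named 38 of the genes, and EIF2AK3, the ER stress kinase PERK, was named by 0 probe sets. Ciprofibrate is a lipid-lowering fibrate and an agonist of PPAR-alpha, a nuclear receptor. RNA from the right lateral lobe of each animal was hybridised to a human gene array, 23 arrays in all. The 4-day groups were vehicle and ciprofibrate at 400 mg/kg/day, with 2 animals each. The 15-day groups were vehicle, with 3 animals, and 3, 30, 150 and 400 mg/kg/day, with 4 animals each. Ages and sexes were not stated in the labels used here.

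Chaperones hold or refold proteins that are not yet in their final shape, and each compartment of the cell has its own set. When unfolded proteins accumulate in the ER, the membrane sensors IRE1, PERK and ATF6 start a response that includes transcription factors such as XBP1, ATF4 and CHOP. Among the genes raised in this response are those of ER chaperones and of ER-associated degradation. The cytosol answers through heat shock factor and the Hsp70, Hsp90 and CCT machines, and mitochondria fold imported proteins with their own Hsp70 and the Hsp60 and Hsp10 pair. Hepatocytes secrete most plasma proteins, so liver has a large ER folding capacity.

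The members were described in 5 classes. The ER lumen class held 13 genes, the class of ER stress sensors, stress factors and degradation 7, the cytosolic heat shock class 10, the cytosolic chaperonin CCT 6 and the mitochondrial matrix 3. A gene was represented by its brightest tested probe set that named that gene alone, and 33 of the 39 genes had one. These were 11, 6, 8, 5 and 3 genes of the classes in the order given. Besides EIF2AK3, the genes without one were DNAJB9 and HSPH1, whose probe sets lay below the intensity filter of 39.7, and HSP90B1, HSPA8 and TCP1, whose tested probe sets also named a small RNA. The levels of these last 3 genes are given in their classes. All changes below are differences of log2(intensity + 16) from the fit described in the methods, with its standard error (SE), and "adjusted p" is limma's p adjusted by the Benjamini-Hochberg method over all 7535 tested probe sets. A gene was said to rise or fall where that p was under 0.05.

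The arrays resembled the rest of their own group with mean correlations between 0.846 and 0.921. All 9 hepatocyte markers with a probe set lay above the filter. Their summed intensity ran from 54667 to 60583 at 400 mg/kg/day on day 15, against 61196 to 65797 in vehicle and 64244 to 87900 at 3 mg/kg/day. Between 3 and 400 mg/kg/day 2 of these 9 fell, APOB by 1.34 ± 0.24 (adjusted p = 0.00151) and ASGR2 by 0.67 ± 0.15 (adjusted p = 0.00834), in the comparison in which 3 members fell. The 7 sinusoidal endothelial markers above the filter all lay below vehicle at 400 mg/kg/day (median -0.63, 0 called in limma), where 47.2% of all represented genes lay above it. Summed over the 9 with a probe set, which include CDH5 and CLEC4M below the filter, intensity was 1589 to 1873 against 2311 to 2607 in vehicle. The summed intensity of the 9 Kupffer cell and macrophage markers with a probe set was 2588 to 3555 at 400 mg/kg/day, 4003 to 5492 in vehicle and 4037 to 6060 at 3 mg/kg/day. Of these 9, MSR1 lay below the filter. Group means of CD14, MARCO and CD5L, Kupffer cell markers called in some comparison, were 3039, 92.9 and 122 in 15-day vehicle. They were 3227, 163 and 71.6 at 3 mg/kg/day and 1851, 22.4 and 39.8 at 400 mg/kg/day. The 9 stellate cell and fibroblast markers with a probe set, 6 above the filter, summed to 766 to 948 in 15-day vehicle. Their sums were 541 to 654 at 3, 567 to 860 at 30, 442 to 672.5 at 150 and 456 to 664 at 400 mg/kg/day. Among these markers TIMP1 had group means of 201 in vehicle and 73.9, 63.4, 35.3 and 43.8 at the doses in that order. Sums without TIMP1 were not taken. Of the 9 markers of B and plasma cells, secretory cells rich in ER chaperones, 8 had a probe set and 3 lay above the filter, and those of the plasma cell genes JCHAIN and TNFRSF17 did not. The ratio of the 5' to the 3' ACTB probe set, a sign of RNA integrity, was 0.574 ± 0.033 (SD, n = 3) in 15-day vehicle, 0.763 ± 0.182 (SD, n = 4) at 3 mg/kg/day and 0.681 ± 0.126 (SD, n = 4) at 400 mg/kg/day. The same ratio for GAPDH was 1.06 ± 0.30, 1.32 ± 0.19 and 1.11 ± 0.12 in these groups. The part of these differences in the results was not tested. In whole liver, fewer cells of a type and less RNA per cell cannot be told apart.

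Few members passed the test at the highest dose: 2 were higher than in vehicle, and 3 others were lower than at 3 mg/kg/day. Against 15-day vehicle, 400 mg/kg/day raised HERPUD1, a gene of ER-associated degradation, and CCT5, a subunit of the chaperonin CCT, while 0 members fell and 31 of 33 did not pass the test. Over all 5462 represented genes, 1.21% rose and 0.934% fell in this comparison. Against 3 mg/kg/day, 400 mg/kg/day lowered HSPA5, the ER lumen Hsp70 known as BiP, PDIA4, a disulfide isomerase, and BAG1, a cochaperone of Hsp70, and 0 members rose. In that comparison 1.89% of all genes rose and 2.31% fell. Over the dose steps at 15 days (vehicle, 3, 30, 150 and 400 mg/kg/day, equally spaced), HERPUD1 rose and HSPA5 and PDIA4 fell. For this slope 1.83% of all genes rose and 1.37% fell.

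**Figure D1:**
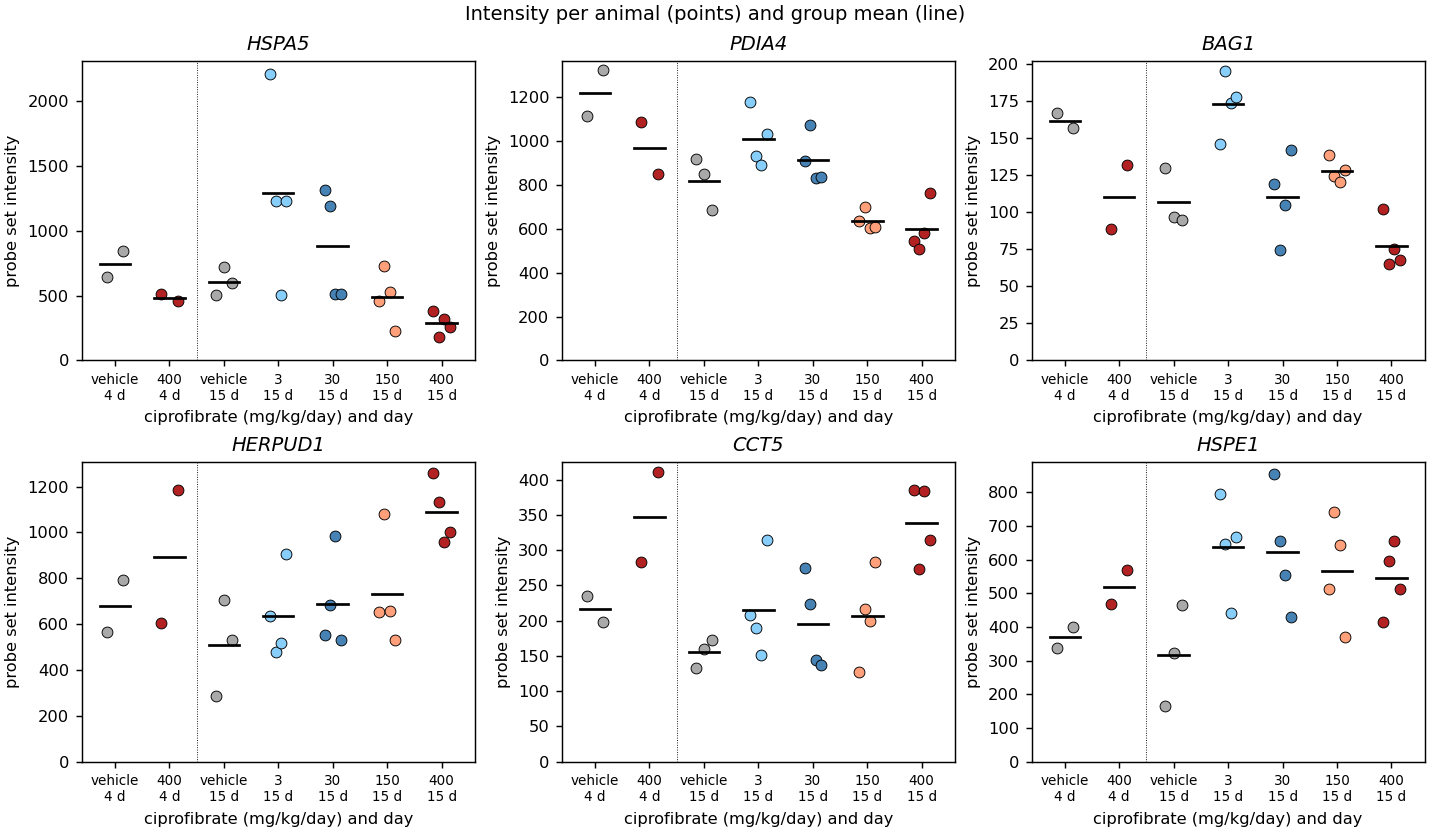
Intensity of 6 members in each animal (points, linear axis from 0) with the group mean (line), for vehicle and each ciprofibrate dose at 4 and 15 days (n = 2, 2, 3, 4, 4, 4 and 4 from left to right). The 4 animals at 400 mg/kg/day on day 15 lay below all 15-day vehicle animals for HSPA5 and above them for HERPUD1 and CCT5, and below all animals at 3 mg/kg/day for HSPA5, PDIA4 and BAG1.

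Of the ER lumen class, HSPA5 had the largest change in both comparisons. In the 15-day vehicle animals its intensity was 501, 717 and 596. At 3 mg/kg/day it was 2206, 1232, 503 and 1230.4, and at 400 mg/kg/day it was 381, 183, 322 and 261. Every animal at 400 mg/kg/day lay below every animal on vehicle or 3 mg/kg/day, and 3 of the 4 animals at 3 mg/kg/day lay above all vehicle animals. HSPA5 fell 3.95-fold from 3 to 400 mg/kg/day (-1.98 ± 0.38, adjusted p = 0.00255), and 10 of the 5462 represented genes had a lower change. At 30 mg/kg/day the animals were at 1316, 1193, 513 and 513, of which 2 lay above all vehicle animals and 2 within them. At 150 mg/kg/day they were at 457, 729.8, 528 and 229.5. Along the dose steps HSPA5 fell by 0.34 ± 0.09 per step (adjusted p = 0.0325), although the mean first stood above vehicle at the lowest dose. The separate steps from vehicle were not called: the change was 0.91 ± 0.41 at 3 mg/kg/day (adjusted p = 0.467) and -1.07 ± 0.41 at 400 mg/kg/day (adjusted p = 0.234).

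The fall of HSPA5 between 3 and 400 mg/kg/day was called in every alternative fit run, with adjusted p up to 0.0164. Its slope was not called without vehicle replicate 1, 2 or 3 (adjusted p = 0.0614, 0.115 and 0.0774), nor without replicate 2 or 4 at 400 mg/kg/day (0.0894 and 0.0651). The slope also lost its call in 3 of the 12 alternative fits that kept all animals.

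PDIA4, which forms and rearranges disulfide bonds in the ER, was the other gene of this class that fell. Its intensity was 919, 851 and 684 on vehicle, 1177, 932, 891 and 1032 at 3 mg/kg/day, and 909, 1073, 832 and 836.5 at 30 mg/kg/day. At 150 mg/kg/day it was 636, 701, 605 and 606, and at 400 mg/kg/day 545, 508, 581.5 and 762. All 8 animals at 150 and 400 mg/kg/day lay below all 8 animals at 3 and 30 mg/kg/day. PDIA4 fell by 0.74 ± 0.15 between 3 and 400 mg/kg/day (adjusted p = 0.00430) and by 0.15 ± 0.04 per dose step (adjusted p = 0.0150). That slope was not called without vehicle replicate 1 (adjusted p = 0.0801) or 2 (0.0591), or in 1 of the 12 alternative fits that kept all animals. At 400 mg/kg/day against vehicle the change of -0.45 ± 0.16 was not called (adjusted p = 0.198), and replicate 4 at that dose, at 762, overlapped vehicle.

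CANX, calnexin, the lectin chaperone of the ER membrane, stood on the other side of vehicle. Its intensity was 1028, 1338 and 1258 on vehicle and 2128, 1478, 1538 and 2928 at 400 mg/kg/day on day 15. The groups did not overlap, but the difference of 0.69 ± 0.25 did not pass the test (adjusted p = 0.203). DNAJC3, a J-domain cochaperone of BiP, lay around the intensity filter. Its vehicle animals were at 110.5, 6.3 and 11.8 and its 400 mg/kg/day animals at 61.2, 41.0, 33.5 and 42.7, a difference of 0.48 ± 0.51 with overlapping groups.

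The remaining 7 ER lumen genes were not called in these comparisons. From vehicle to 400 mg/kg/day they changed by between -0.29 (P4HB) and 0.29 (PDIA3), and from 3 to 400 mg/kg/day by between -0.50 (HYOU1, an Hsp70-related chaperone, adjusted p = 0.131) and 0.32 (CALR, calreticulin). The interval of the difference between 400 and 3 mg/kg/day ran from -0.46 to 0.31 for PDIA3, the isomerase that works with calnexin and calreticulin, and from -0.31 to 0.30 for P4HB, the classical disulfide isomerase. PDIA6, ERP29 and SERPINH1, the collagen chaperone, had differences of -0.20, -0.35 and -0.04. A second tested probe set of P4HB went the other way from its representative at 400 mg/kg/day against vehicle, with 0.77 ± 0.23 (adjusted p = 0.0980) beside -0.29 ± 0.16. HSP90B1, the ER Hsp90, was read only by the probe set that also named a small RNA: that probe set differed by 0.06 ± 0.38 from vehicle at 400 mg/kg/day and by -0.41 ± 0.35 from 3 mg/kg/day.

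Over the ER lumen class, 9 of 11 genes lay lower at 400 than at 3 mg/kg/day, with a median of -0.20 against 0.01 over all represented genes. Of all represented genes 50.9% lay higher at 400 than at 3 mg/kg/day. Of the 11 genes, 6 had their highest 15-day group mean at 3 mg/kg/day (54.5%, 18.9% over all represented genes). The lowest was at 400 mg/kg/day for 6 (54.5%, 22.8% over all). At 3 mg/kg/day, replicate 3 was the lowest animal of its group for 8 of the 11 genes and replicate 1 the highest for 7.

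**Figure D2:**
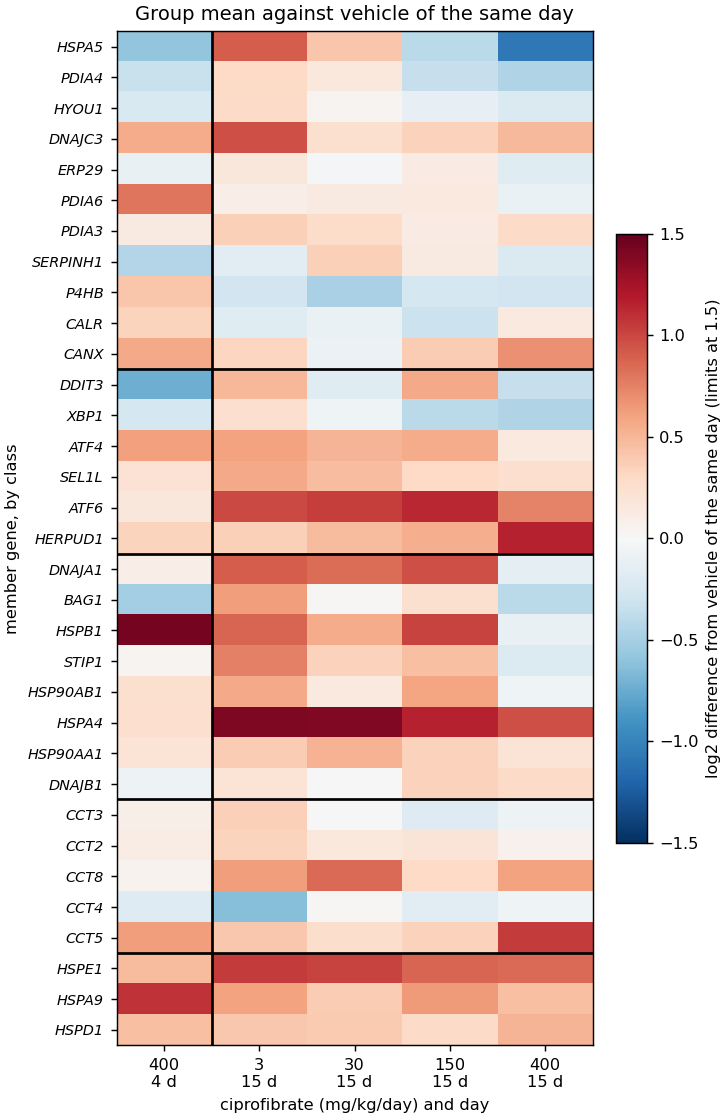
Mean log2 difference from vehicle of the same day for the 33 represented members (rows, by class, black lines between classes) in each ciprofibrate group (columns, 4 days at the left). HSPA5 runs from 0.91 at 3 mg/kg/day to -1.07 at 400 mg/kg/day, while HERPUD1 and CCT5 are highest at 400 mg/kg/day.

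The genes of ER stress signalling and degradation were led by HERPUD1, an ER membrane protein that recruits the degradation machinery and is itself a classical target of ATF6 and ATF4. Its intensity was 288, 704 and 529 on vehicle, and 1258.5, 1133, 959.8 and 1004 at 400 mg/kg/day on day 15. All 4 treated animals lay above the 3 vehicle animals, which themselves differed widely. HERPUD1 rose by 1.16 ± 0.30 (adjusted p = 0.0381) and by 0.25 ± 0.07 per dose step (adjusted p = 0.0329). It stood at 637, 479.8, 519.6 and 908 at 3 mg/kg/day, so that the groups at 3 and 400 mg/kg/day did not overlap either (0.80 ± 0.28, adjusted p = 0.111). HERPUD1 had its highest 15-day mean at the dose at which HSPA5, also an ER stress target, had its lowest.

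The call of HERPUD1 at 400 mg/kg/day did not hold when most single animals were left out. It was kept without vehicle replicate 2 (1.43, adjusted p = 0.0244). It ended without vehicle replicate 1, the lowest animal (0.81, adjusted p = 0.301), or 3 (0.0717), and without replicate 1 (0.114), 2 (0.0853), 3 (0.0601) or 4 (0.0712) at 400 mg/kg/day. Its slope was likewise not called without vehicle replicate 1 or 3 (adjusted p = 0.215 and 0.0578), without replicate 2 or 3 at 3 mg/kg/day (0.0527 and 0.0541), or without replicate 1, 2 or 4 at 400 mg/kg/day (0.0869, 0.0680 and 0.0520). The slope also lost its call in 2 of the 12 alternative fits that kept all animals.

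The stress transcription factors were not called at any dose. XBP1, the factor made active by IRE1 splicing, was at 2326, 1739.9 and 1590.3 on vehicle and at 1047.5, 1241, 946 and 2706 at 400 mg/kg/day on day 15, with 1 animal above all vehicle animals and 3 below (-0.46 ± 0.44, adjusted p = 0.768). Spliced and unspliced XBP1 were not told apart here. DDIT3, the factor CHOP, was at 103.5, 56.2 and 143 on vehicle and at 49.7, 90.1, 131 and 41.0 at 400 mg/kg/day, with overlapping groups (-0.34 ± 0.46, adjusted p = 0.851). ATF6, the sensor that becomes a transcription factor when cut, was at 41.5, 62.5 and 158 on vehicle and at 26.3, 239, 207 and 219 at 400 mg/kg/day. Of these treated animals 3 lay above vehicle and replicate 1 lay below it (0.74 ± 0.47, adjusted p = 0.582).

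ATF4, the factor of the integrated stress response, differed from vehicle by 0.60 ± 0.25 at 3, 0.50 ± 0.25 at 30 and 0.55 ± 0.25 at 150 mg/kg/day, with no overlap of those groups and vehicle, and by 0.15 ± 0.25 at 400 mg/kg/day. None of these passed the test (adjusted p from 0.400 to 0.885). SEL1L, the adaptor of the ubiquitin ligase of the ER, differed by 0.25 ± 0.43 at 400 mg/kg/day. The 6 genes of the class had a median difference from vehicle of 0.20 at 400 mg/kg/day, and of -0.09 without vehicle replicate 1. Between 3 and 400 mg/kg/day 5 of the 6 lay lower, with a median of -0.38.

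**Figure D3:**
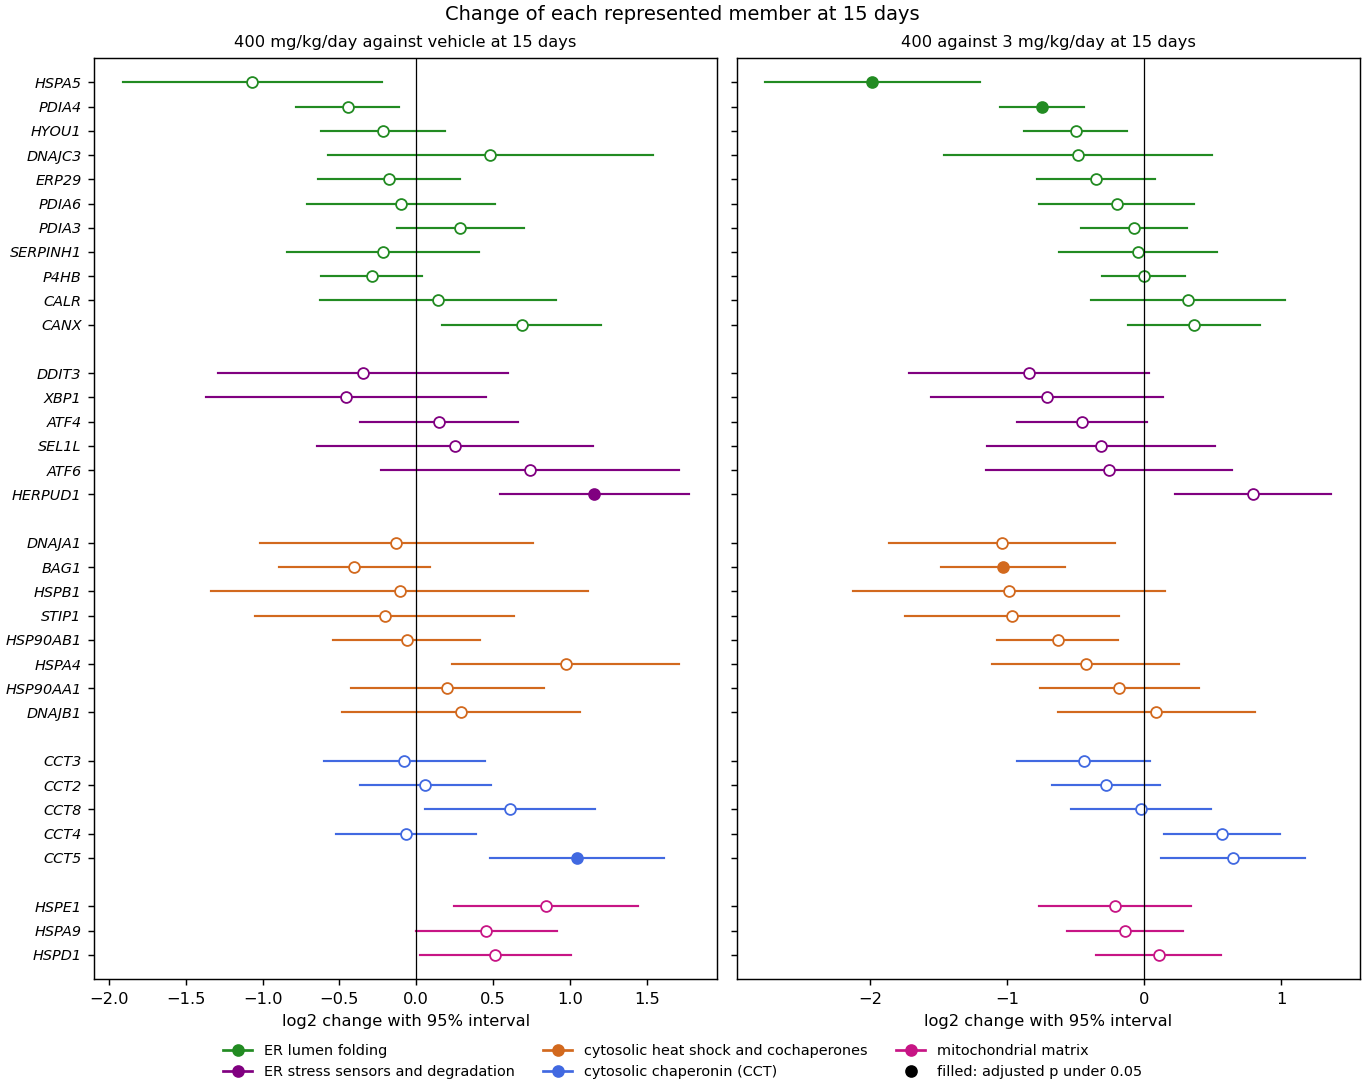
Log2 change (points) with its 95% interval (bars) for the 33 represented members at 15 days, for 400 mg/kg/day against vehicle (left) and against 3 mg/kg/day (right), coloured by class and filled where the adjusted p was under 0.05. HERPUD1 and CCT5 are filled at the left and HSPA5, PDIA4 and BAG1 at the right, and 26 of 33 points at the right lie below 0.

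Of the 8 cytosolic heat shock genes, BAG1 was the only one called in any comparison. BAG1 releases nucleotide from Hsp70 and so lets it let go of its client. Its intensity was 129.7, 96.9 and 94.5 on vehicle, 146, 195, 173 and 177 at 3 mg/kg/day, and 102, 64.8, 75.0 and 67.5 at 400 mg/kg/day. The animals at 3 mg/kg/day lay above all vehicle animals and above all animals at 400 mg/kg/day. BAG1 fell by 1.03 ± 0.22 between 3 and 400 mg/kg/day (adjusted p = 0.00686), a call that every alternative fit kept. Against vehicle the difference of -0.40 ± 0.24 at 400 mg/kg/day was not called (adjusted p = 0.539), nor was 0.62 ± 0.24 at 3 mg/kg/day (adjusted p = 0.371).

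HSPA4, a nucleotide exchange factor of the Hsp110 type, stood higher at every dose. It was at 20.1, 102 and 52.9 on vehicle, at 194, 119.5, 128 and 212 at 3 mg/kg/day and at 164, 92.0, 101 and 110 at 400 mg/kg/day. The animals at 3 and at 150 mg/kg/day all lay above vehicle, and those at 30 and 400 mg/kg/day overlapped it in 1 vehicle animal, replicate 2. The differences were 1.40 ± 0.36 at 3, 1.39 ± 0.36 at 30, 1.15 ± 0.36 at 150 and 0.97 ± 0.36 at 400 mg/kg/day, none of which passed the test (adjusted p from 0.165 to 0.205). Without vehicle replicate 1, the lowest animal, the difference at 400 mg/kg/day was 0.53 (adjusted p = 0.736). The vehicle values straddled the intensity filter, and a log2 change so low on the scale depends on the pseudocount.

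STIP1, the adaptor that passes clients from Hsp70 to Hsp90, was at 446.5, 483 and 595 on vehicle, at 1037, 922, 469 and 1227 at 3 mg/kg/day and at 427, 249, 739 and 452 at 400 mg/kg/day. Of the animals at 3 mg/kg/day, 3 lay above vehicle and replicate 3 lay within it. Between 3 and 400 mg/kg/day the difference was -0.96 ± 0.38 (adjusted p = 0.170). DNAJA1, a J-domain cochaperone of Hsp70, was at 2992, 1472, 605 and 2219 at 3 mg/kg/day and at 969, 815.5 and 719 on vehicle. Again 3 animals lay above vehicle, while replicate 3 lay below it. At 400 mg/kg/day it was at 1067, 542, 1342 and 417, a difference of -1.03 ± 0.40 from 3 mg/kg/day (adjusted p = 0.162). HSP90AB1, the constitutive Hsp90, differed by -0.63 ± 0.21 (adjusted p = 0.104). Among its other tested probe sets, 1 ran from 2342 to 3777 at 3 and from 1055 to 3125 at 400 mg/kg/day. Another ran from 163 to 273 and from 131 to 246, and the last from 188 to 232.5 and from 125 to 209. Without replicate 3 at 3 mg/kg/day, DNAJA1 and HSP90AB1 were called as well, and 5 members in place of 3 fell between 3 and 400 mg/kg/day. The probe sets of DNAJA1 disagreed in size between 3 and 400 mg/kg/day, since the second gave -0.08 ± 0.27. Neither was called. At 400 mg/kg/day against vehicle, probe sets of CALR (0.14 and -0.10) and HSP90AB1 (from -0.22 to 0.22 over 4) differed in sign, with 0 of these values called.

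HSPB1, a small heat shock protein, varied widely between animals. It ran from 412 to 3183 at 3 mg/kg/day and from 449.5 to 2337 at 400 mg/kg/day, beside 765 to 1046 on vehicle (-0.11 ± 0.59 at 400 mg/kg/day). At 4 days, with 2 animals in each group, it was at 711 and 494 on vehicle and at 1371 and 1945 on ciprofibrate. The difference of 1.44 ± 0.78 was the largest of the 33 members on that day but did not pass the test (adjusted p = 0.759). DNAJB1, the heat-inducible partner of Hsp70, was at 137, 292 and 258 on vehicle and at 417, 255.5, 294 and 169.7 at 400 mg/kg/day (0.29 ± 0.37). HSP90AA1, the inducible Hsp90, differed by 0.20 ± 0.30. The 4 tested HSPA8 probe sets, which also named small RNAs encoded within that gene, differed from vehicle by between -0.25 and 0.25 at 400 mg/kg/day. The heat shock proteins HSPA8, HSP90AA1 and HSP90AB1 have close relatives and processed pseudogenes, so a probe set may also read a related message.

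As a class, the cytosolic genes stood above vehicle for 8 of 8 at 3, at 30 and at 150 mg/kg/day, with medians of 0.69, 0.43 and 0.52, and for 3 of 8 at 400 mg/kg/day, with a median of -0.09. Of all represented genes 48.6%, 49.5%, 47.5% and 47.2% stood above vehicle at 3, 30, 150 and 400 mg/kg/day. These comparisons share the 3 vehicle animals. Against them the control gene ACTB stood 0.69 ± 0.21 higher at 3, 0.54 ± 0.21 at 30, 0.42 ± 0.21 at 150 and 0.52 ± 0.21 at 400 mg/kg/day (adjusted p from 0.243 to 0.444). The control gene GAPDH differed by -0.36, -0.41, -0.19 and 0.003 (SE 0.21, adjusted p from 0.547 to 0.998). Neither was called, and the part of such a shift in the class medians was not tested. Leaving out 1 animal at a time gave medians from -0.35 (without replicate 3 at 400 mg/kg/day) to 0.15 (without replicate 4) at 400 mg/kg/day, and from 0.18 (without replicate 1 at 30 mg/kg/day) to 0.61 at 30 mg/kg/day. Directly against 3 mg/kg/day, 7 of 8 lay lower at 400 mg/kg/day, with a median of -0.79, which was -0.47 without replicate 4 at 400 mg/kg/day.

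Among the chaperonin genes, CCT5 was the only 1 of 5 represented subunits called in a comparison. CCT is a barrel of different subunits that folds actin and tubulin. CCT5 was at 132, 160.2 and 172 on vehicle and at 386, 273, 384 and 314 at 400 mg/kg/day on day 15. All treated animals lay above all vehicle animals, and the rise was 1.05 ± 0.27 (adjusted p = 0.0425). The call was kept without replicate 2 at 400 mg/kg/day (1.14, adjusted p = 0.0480). It ended without vehicle replicate 1 (0.95, adjusted p = 0.191), 2 (0.104) or 3 (0.0753), and without replicate 1 (0.124), 3 (0.115) or 4 (0.0813) at 400 mg/kg/day. At 3, 30 and 150 mg/kg/day the differences were 0.40, 0.26 and 0.34, with overlapping groups.

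The other subunits were not called. CCT8 was at 122, 228 and 181 on vehicle and in a narrow band of 255, 270.2, 283 and 275 at 400 mg/kg/day, with no overlap (0.61 ± 0.27, adjusted p = 0.325). CCT3 was at 234.5, 322 and 373.5 on vehicle and at 256, 323.5, 266 and 312 at 400 mg/kg/day, and its difference of -0.08 ± 0.25 changed sign with the scaling of the arrays. CCT4 was at 298, 318 and 228 on vehicle and at 297, 217, 255 and 301 at 400 mg/kg/day, and its difference of -0.07 ± 0.22 did so too. CCT2 differed by 0.06 ± 0.21. TCP1, read by a probe set that also named a small RNA, differed by 0.59 ± 0.26 (adjusted p = 0.325) with no overlap. The class median of 0.06 lay beside changes from -0.08 to 1.05, a spread between subunits that was not tested, and it was 0.33 when TCP1 was included through its shared probe set.

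The 3 mitochondrial genes, HSPD1 (Hsp60), HSPE1 (its partner Hsp10) and HSPA9 (the matrix Hsp70), stood above vehicle at every dose and on both days, though none passed the test. So did the control gene ACTB, at 15 days by the differences given above and at 4 days by 0.33 ± 0.27, also without a call. HSPE1 was at 164, 321 and 466 on vehicle and at 416, 596, 656 and 511 at 400 mg/kg/day on day 15, where 3 of 4 animals lay above all vehicle animals. It differed by 0.84 ± 0.29 at 400 mg/kg/day (adjusted p = 0.158) and by 1.05 ± 0.29 at 3 mg/kg/day (adjusted p = 0.213). Without vehicle replicate 3, the highest vehicle animal, HSPE1 was called at 400 mg/kg/day (1.17, adjusted p = 0.0486), and without vehicle replicate 1, the lowest, it differed by 0.46 (adjusted p = 0.692).

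HSPD1 was at 2955, 4343 and 4971 on vehicle and at 5088, 5266, 6463 and 6155 at 400 mg/kg/day, with no overlap (0.51 ± 0.24, adjusted p = 0.364). HSPA9 was at 131, 113 and 132 on vehicle and at 206, 173, 210.3 and 132 at 400 mg/kg/day, and its lowest treated animal lay just above the highest vehicle animal (0.46 ± 0.22, adjusted p = 0.400). The level at 400 mg/kg/day was not told apart from that at 3 mg/kg/day for any of the 3. The difference was 0.11 with an interval from -0.35 to 0.56 for HSPD1, -0.21 with -0.76 to 0.34 for HSPE1 and -0.14 with -0.56 to 0.28 for HSPA9.

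**Figure D4:**
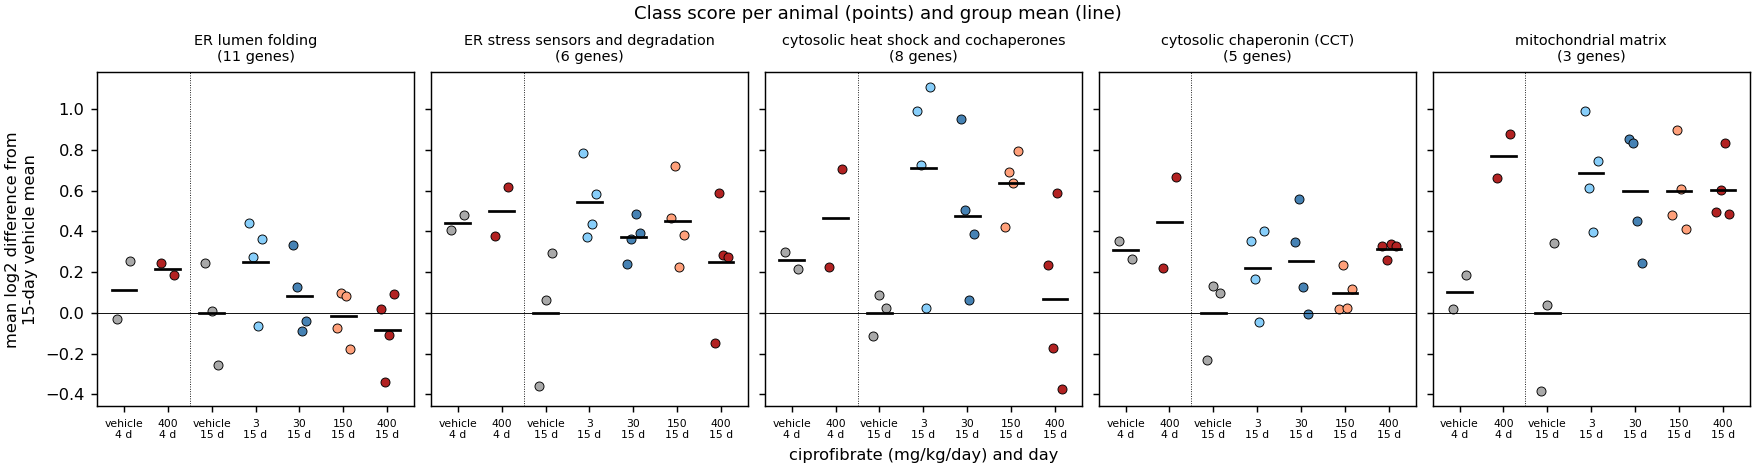
Class score of each animal (points) and group mean (line), for the 5 classes, where the score is the mean over a class's represented genes of the log2 difference from the 15-day vehicle mean. The cytosolic score falls from a mean of 0.71 at 3 mg/kg/day to 0.07 at 400 mg/kg/day, while the mitochondrial score lies between 0.60 and 0.69 in all 4 treated groups at 15 days.

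The classes were also summarised per animal. Each animal was given a score per class, the mean of its genes' log2 differences from the 15-day vehicle mean. The ER lumen score went from 0.25 ± 0.22 (SD, n = 4) at 3 mg/kg/day through 0.08 ± 0.19 and -0.02 ± 0.13 to -0.08 ± 0.19 at 400 mg/kg/day, beside a vehicle SD of 0.25 (n = 3), so the animals overlapped. The cytosolic score was 0.71 ± 0.49 at 3, 0.48 ± 0.37 at 30, 0.64 ± 0.16 at 150 and 0.07 ± 0.43 at 400 mg/kg/day (SD, n = 4 each). Its animals at 150 mg/kg/day, from 0.42 to 0.80, lay above all vehicle animals, which ended at 0.09. The mitochondrial score was 0.69 ± 0.25, 0.60 ± 0.30, 0.60 ± 0.21 and 0.60 ± 0.16 at the 4 doses, with vehicle animals from -0.38 to 0.34 and animals at 400 mg/kg/day from 0.49 to 0.83. The chaperonin score at 400 mg/kg/day lay between 0.26 and 0.34 in its 4 animals. Vehicle reached 0.13 at 15 days, and the 2 vehicle animals of day 4 scored 0.36 and 0.26. The ER stress score was 0.54 ± 0.18, 0.37 ± 0.10, 0.45 ± 0.21 and 0.25 ± 0.30 at the 4 doses (SD, n = 4 each). Its 15-day vehicle animals ran from -0.36 to 0.30. Means in 4-day vehicle were 0.11 for ER lumen, 0.44 for ER stress, 0.26 for cytosolic, 0.31 for chaperonin and 0.10 for mitochondrial. The difference between classes was not tested.

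Across all 33 represented members, more stood above vehicle at the lower doses than at the highest. Members above vehicle numbered 29 at 3, 27 at 30, 25 at 150 and 17 at 400 mg/kg/day, with medians of 0.40, 0.26, 0.30 and 0.06, beside medians between -0.03 and -0.01 over all represented genes. Of all represented genes 48.6%, 49.5%, 47.5% and 47.2% stood above vehicle at these doses. All 4 counts rest on the same 3 vehicle animals. The highest 15-day group mean was at 3 mg/kg/day for 15 of 33 members (45.5%, 18.9% over all represented genes). The lowest was in vehicle for 15 (45.5%, 20.5% over all) and at 400 mg/kg/day for 13 (39.4%, 22.8% over all). Replicate 3 at 3 mg/kg/day was the lowest animal of its group for 18 of the 33, and vehicle replicate 1 was the lowest of the vehicle animals for 17, among them 4 of 6 ER stress, 4 of 5 chaperonin and 2 of 3 mitochondrial genes.

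At these lower doses 0 members passed the limma test. At 3 mg/kg/day 10 members had an unadjusted p under 0.05 above vehicle and 1 below, at 30 mg/kg/day 4 and 1, and at 150 mg/kg/day 7 and 1. Over all represented genes the share with an unadjusted p under 0.05 was 9.96%, 9.59% and 11.5% at the 3 doses, and the share called was 0%, 0.0183% and 0.714%. Groups that did not overlap vehicle at 400 mg/kg/day were found for 6 members above (CANX, HERPUD1, CCT5, CCT8, HSPA9 and HSPD1) and 1 below (HSPA5), where 6.90% of all represented genes lay above and 6.85% below. Against 3 mg/kg/day 1 member lay above (HERPUD1) and 3 below (HSPA5, PDIA4 and BAG1), where the shares over all genes were 5.90% and 5.33%.

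At 4 days 400 mg/kg/day and vehicle were compared over 2 animals each. The test called 0 of 33 members, and limma's unadjusted p was under 0.05 for 2, PDIA6 (0.81 ± 0.39, adjusted p = 0.645) and HSPA9, both above vehicle. Over all represented genes 0.348% were called and 7.71% had an unadjusted p under 0.05. HSPA9 was at 119 and 159.7 on vehicle and at 279.8 and 342 on ciprofibrate (1.08 ± 0.29, adjusted p = 0.151). HSPA5 was at 644 and 840 on vehicle and at 512 and 454.5 on ciprofibrate (-0.59 ± 0.53), on the same side as at 15 days. HERPUD1 was at 566 and 794 against 604 and 1185 (0.33 ± 0.39), and CCT5 at 235 and 198 against 283 and 411 (0.62 ± 0.36).

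Limma's test of the difference between the 15-day and 4-day effects of 400 mg/kg/day called 0 members, and 1 member, P4HB, had an unadjusted p under 0.05 (-0.71 ± 0.26, adjusted p = 0.999). The second tested P4HB probe set went the opposite way on both days. At 4 days it was at 326.7 and 334.1 on vehicle and at 323.7 and 287 on ciprofibrate. At 15 days it was at 227.4, 225.4 and 140.1 on vehicle and at 300.7, 352.1, 359.4 and 351.8 at 400 mg/kg/day. Over all represented genes the shares were 0% called and 3.31% with an unadjusted p under 0.05. The difference for HSPA5 was -0.47 ± 0.67, which leaves a wide interval. Between the vehicle groups, 24 of 33 members lay lower at 15 than at 4 days (median -0.27), 0 were called and 4 had an unadjusted p under 0.05 in limma, CALR above and PDIA4, ERP29 and CCT8 below. Over all represented genes 0.897% were called between the vehicle groups, 13.0% had an unadjusted p under 0.05 and 47.3% lay higher at 15 days. The 5' to 3' ACTB ratio was 0.868 ± 0.170 (SD, n = 2) at 4 days against the 0.574 given above for 15 days, while that of GAPDH was lower at 4 days, at 0.970 ± 0.032 (SD, n = 2) against 1.06. Their part in this shift was not tested. Day cannot be told apart here from any other difference between the 4-day and 15-day animals or arrays.

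Other genes of the same pathways gave few calls. Of 28 represented genes of ER folding and translocation outside the members, 1 rose and 0 fell at 400 mg/kg/day against vehicle, and 1 rose and 1 fell against 3 mg/kg/day. SEC61B, a subunit of the channel through which new proteins enter the ER, rose by 0.89 ± 0.22 (adjusted p = 0.0306). Its intensity was 519 ± 177 (SD, n = 3) on vehicle and 956 ± 221 (SD, n = 4) at that dose. MANF, a secreted ER stress-inducible factor that binds BiP, fell by 1.30 ± 0.23 between 3 and 400 mg/kg/day (adjusted p = 0.00150), and its intensity was 1356 ± 455 at the lower and 516 ± 34.2 at the higher dose (SD, n = 4 each). Its animals ran from 771 to 1837 at 3 mg/kg/day and from 471 to 554 at 400 mg/kg/day, and from 879 to 1034 on vehicle, within the range at 3 mg/kg/day and above that at 400 mg/kg/day. MANF fell by 0.23 ± 0.05 per dose step (adjusted p = 0.0167) and SEC61B rose by 0.20 ± 0.05 (adjusted p = 0.0161). NUCB2, a calcium-binding protein of the secretory pathway, rose by 1.61 ± 0.41 from 3 to 400 mg/kg/day (adjusted p = 0.0256), with intensities of 68.1 ± 47.0 and 222 ± 131 (SD, n = 4 each).

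These calls differed in how they stood up to other settings. The fall of MANF from 3 to 400 mg/kg/day was called in every alternative, while its slope was not without vehicle replicate 2 (adjusted p = 0.0684) or with arrays scaled to the same median (0.0612). The rise of SEC61B ended without vehicle replicate 1 (adjusted p = 0.0942) or 3 (0.204), and without replicate 1 (0.0547) or 4 (0.107) at 400 mg/kg/day, with no variance trend (0.0732) and with only the 2 groups in the fit (0.131). Its slope ended without vehicle replicate 3 (0.103) or replicate 4 at 400 mg/kg/day (0.0524). The rise of NUCB2 ended without replicate 2 (0.0552) or 4 (0.0932) at 3 mg/kg/day, without replicate 1 (0.0595) or 4 (0.108) at 400 mg/kg/day, and with only the 2 groups in the fit (0.125).

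Of 20 further genes of stress signalling and ER-associated degradation, 0 were called at 400 mg/kg/day against vehicle or against 3 mg/kg/day in limma. VCP, the ATPase that pulls proteins out of the ER membrane, had the smallest p against vehicle (0.76 ± 0.24, adjusted p = 0.116). Of 32 further cytosolic chaperones 0 were called in limma in these comparisons, and BAG6, a cochaperone, had the smallest p against vehicle (0.67 ± 0.27, adjusted p = 0.270). Of 18 further genes of mitochondrial folding, import and proteolysis 0 were called in limma in these comparisons. CLPP, the matrix protease that works with a chaperone ring, differed from vehicle by 0.86 ± 0.27 (adjusted p = 0.114). Of the 18 genes, 13 lay above vehicle with a median of 0.09, where 47.2% of all represented genes did.

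Between the vehicle groups 3 genes of these wider lists were called. From 4 to 15 days SSR4, a translocon-associated protein, rose by 1.01 ± 0.21 (adjusted p = 0.0207), and TBCB, a tubulin-folding cofactor, rose by 1.43 ± 0.31 (adjusted p = 0.0240). BAX, a promoter of apoptosis that can act downstream of ER stress, fell by 2.66 ± 0.37 (adjusted p = 0.000771). BAX ran from 734 to 837 in the 4 animals of day 4, vehicle and treated, and from 76.2 to 188 in the 19 animals of day 15. For these genes too, day cannot be told apart from any other difference between the 4-day and 15-day arrays. SSR4 was not called without 4-day vehicle replicate 1 (adjusted p = 0.252) or 2 (0.126) or 15-day vehicle replicate 1 (0.0856). TBCB was not called without 4-day vehicle replicate 1 (0.322) or 2 (0.102), or 15-day vehicle replicate 1 (0.0584) or 3 (0.0867). With only the 2 vehicle groups in the fit, SSR4, TBCB and BAX were not called (adjusted p = 0.145, 0.112 and 0.0689), and without a variance trend SSR4 and TBCB were not (0.0502 and 0.0526). BAX was called with each vehicle animal left out in turn (adjusted p up to 0.0286).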

How the data were processed

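Intensity values per probe set, on a linear scale, were deposited by the authors, who used MAS5, per the submitters' processing notes, which give no version or settings here. Trimmed by 2% at both ends, array means ran from 150.065 to 150.08, so the arrays shared 1 scaling target and were not scaled again. The probes were designed for human transcripts, and which of them match monkey messages was not checked. Probe sets were named through the platform annotation of 2016.

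Here values were converted to log2(intensity + 16). The 7535 of 12558 non-control probe sets with a mean at or above the 40th percentile (an intensity of 39.7) were tested with limma 3.58.1 in R 4.3.3. A means model of the 7 dose and day groups was fitted to all 23 arrays with an intensity trend, so small groups shared an estimate of spread. P values were two-sided and adjusted by the Benjamini-Hochberg method, called under 0.05. The fit was tested on simulated data. The number of arrays limits the precision.

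The members, classes and wider lists were chosen with earlier results of these data known. Values per animal are given for members called in any comparison and for up to 4 members per class with the largest change at 400 mg/kg/day against 15-day vehicle. For each wider list, called genes of the comparisons discussed are named, or otherwise the gene with the smallest p. Members were not counted adjusted over their list. Samples were biological replicates per the labels, and replicate numbers did not pair animals across groups (correlations of deviations from -0.087 to 0.034). Alternatives covered the pseudocount, filter, scaling, variance prior, array weights, replicate block, separate fits, probe set choice and leaving out each animal.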

Additional observations from a re-analysis of the deposited data

Results flagged for a closer look

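Single animals stood far from the rest of their group of 4 in 5 of 96 groups examined, with a gap to the nearest animal above Dixon's 95% critical value for 4 samples, which chance gives in about 1 of 20 groups. CCT8 was at 498.6 in replicate 1 at 3 mg/kg/day on day 15, where the other animals were between 217 and 235.5. DDIT3 was at 45.1 in replicate 1 at 30 mg/kg/day, against 94.4 to 102 in the others. HSPA4 was at 202.8 in replicate 4 at 150 mg/kg/day, against 112 to 115. ATF6 was at 26.3 in replicate 1 at 400 mg/kg/day, below the filter, against 207 to 239. The chaperonin score was 0.26 in replicate 2 at 400 mg/kg/day, against 0.33 to 0.34, a small gap in a narrow group.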

How the results depend on the processing

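The calls of HSPA5, PDIA4 and BAG1 between 3 and 400 mg/kg/day were kept in every alternative. The count of members called at 400 mg/kg/day against 15-day vehicle, 2 in the reported fit, was 0 with no filter on low values or with no variance trend. It was 1 with the replicate block (HERPUD1 alone) and 1 with only the 2 groups of the comparison (CCT5 alone). For 150 mg/kg/day 1 member (DNAJA1) was called with only the 2 groups, for 4 days 1 (HSPA9) and for the vehicle groups 2 (ERP29 and CCT8) with array weights, in place of 0. The slope count of 3 was 1 with arrays scaled to the same median or with no variance trend. The replicate block moved no other count of members called. The chaperonin median at 400 mg/kg/day against vehicle was 0.33 with probe sets that also name a small RNA, an alternative chosen after seeing the data. The cause of these changes was not tested.

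Leaving out 1 animal at a time gave 0 to 1 members called at 400 mg/kg/day against vehicle, 0 to 4 for the slope and 3 to 5 for 400 against 3 mg/kg/day. Class medians that moved without 1 animal by more than the pooled SD of that class's score between animals of a group ran, over all such fits, from -0.088 (without vehicle replicate 1) to 0.40 for ER stress at 400 mg/kg/day, from 0.11 to 0.64 for ER stress at 30 mg/kg/day, from -0.24 to 0.15 for ER lumen at 150 mg/kg/day and from -0.053 to 0.18 for ER lumen at 30 mg/kg/day. At 4 days they ran from -0.17 to 0.45 for ER lumen, from -0.21 to 0.47 for ER stress and from -0.17 to 0.41 for chaperonin. For 400 against 3 mg/kg/day chaperonin ran from -0.13 to 0.25, the latter without 3 mg/kg/day replicate 1. Other medians moved by less than that SD but crossed 0 or changed by over 1.5 times. Against vehicle at 400 mg/kg/day the cytosolic median of -0.09 ran from -0.35 to 0.15, the chaperonin median from -0.020 to 0.19, and the ER lumen median of -0.18 reached 0.0012 without vehicle replicate 2. At 30 mg/kg/day the cytosolic median ran from 0.18 to 0.61, chaperonin from 0.028 to 0.29 and mitochondrial from 0.32 to 0.62. At 150 mg/kg/day chaperonin ran from 0.065 to 0.32 and ER stress from 0.36 to 0.63, and at 3 mg/kg/day ER lumen from 0.14 to 0.33 and chaperonin from 0.21 to 0.49. At 4 days cytosolic ran from -0.10 to 0.43. For 400 against 3 mg/kg/day ER lumen ran from -0.31 to -0.070, cytosolic from -0.95 to -0.47 and mitochondrial from -0.22 to -0.012. Among the other settings the cytosolic median at 400 mg/kg/day reached 0.023 and the ER lumen median at 150 mg/kg/day fell to 0.00044.

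Uncalled changes near 0 at 400 mg/kg/day against vehicle changed sign. CCT3 was 0.026 and CCT4 0.038 with arrays scaled to the same median. Leaving out 1 animal gave -0.26 to 0.063 for CCT3, -0.20 to 0.025 for CCT4, -0.020 to 0.50 for DNAJB1 and -0.45 to 0.050 for STIP1. Members with vehicle values near the filter, such as HSPA4 and DNAJC3, have changes whose size depends on the pseudocount.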
